A study of Mus musculus with 6 samples.

Results

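Zfp36l1 and its relative Zfp36l2, genes for proteins that speed the decay of messenger RNA, were followed in young and aged mouse brain. They were the 2 rows of the deposited senescence table, out of 88 genes, whose symbol begins with Zfp36l. Messenger RNA from ground brain tissue, labelled with neuroblasts (immature neurons) as the cell type, was sequenced from 3 young and 3 aged mouse brain samples. The labels give no ages, strain, sex or genotype. One tamoxifen treatment, described for tracing tdTomato-labelled NK cells, stands in the labels of both groups. None of the 7 neuroblast markers examined is among the 88 genes, so the labelled cell type could not be checked. The values are the authors' expression signal, whose unit is not named, and the depth of the libraries is unknown. In all 88 genes the aged mean exceeded the young mean, which marks the table as a selection by that direction, and Zfp36l1 was singled out because its 3 aged values lie above its 3 young values. Their levels are therefore a description, with no test of either gene. The library labelled aged replicate 1 differed from the other 5 across the table, and results that rest on it are given with and without it. Nothing in the labels ties the samples to separate animals, and the spread between them may be technical.

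Proteins of the ZFP36 family bind AU-rich elements, short stretches in the 3′ untranslated region of many unstable transcripts, through a pair of CCCH zinc fingers, and recruit the enzymes that shorten the poly(A) tail. The kinase MK2, which acts downstream of p38 and whose synthesis is promoted by mTOR, phosphorylates ZFP36L1 and blocks its action. In the described senescence pathway this spares the messengers of secreted inflammatory factors from decay. The founding member Zfp36 (tristetraprolin) and the mouse gene Zfp36l3 are not among the 88 genes and were not analysed here.

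The coding sequence of the pair of zinc fingers is shown because it is where the members are most alike, and so where reads of one could be taken for the other. In the longest coding transcripts of GENCODE release M21 (GRCm38; for the deposited values no build is given in the sources used here), it spans coding bases 358 to 531 of Zfp36l1 and 481 to 654 of Zfp36l2, counted from the start codon. Capitals mark the bases that differ.
Zfp36l1: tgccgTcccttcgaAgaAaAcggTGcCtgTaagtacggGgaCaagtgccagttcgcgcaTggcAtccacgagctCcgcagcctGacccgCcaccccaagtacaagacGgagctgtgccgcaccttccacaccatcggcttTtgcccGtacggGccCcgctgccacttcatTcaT
Zfp36l2: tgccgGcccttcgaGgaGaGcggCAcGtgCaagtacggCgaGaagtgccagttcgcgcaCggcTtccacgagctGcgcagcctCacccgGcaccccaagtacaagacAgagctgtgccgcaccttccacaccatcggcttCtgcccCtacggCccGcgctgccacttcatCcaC
The stretches differed at 22 of 174 bases (87.4% identical), and 19 of these 22 lay at the third position of a codon. The amino acid was the same in 54 of 58 codons. Over the whole coding sequences, 75.6% of 994 aligned bases were identical. The longest run shared by the full transcripts was 32 bases, inside the fingers. A read longer than that, without errors, belongs to one gene or the other. No read length is given in the labels.

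Both transcripts also carry in their own 3′ untranslated region the kind of element the family binds. The heptamer TATTTAT occurred 3 times in that of Zfp36l1 (1835 bases) and 3 times in that of Zfp36l2 (1822 bases), read on the transcript strand. Of 80 table genes with an annotated coding transcript, 27.5% held it at least once, and Zfp36l1, Zfp36l2, Il1a and Sirt1 were the 4 genes with 3 or more. The 3′ untranslated regions differed in length, with a median of 882.5 bases. Of the 15 that were at least as long as that of Zfp36l2, 8 held the heptamer, with both members counted in the 15 and in the 8. The longer element TTATTTATT, which contains the heptamer and was held by 7.5% of the 80 genes, occurred in both members. One such site of each is printed, with the heptamer in capitals.
Zfp36l1: tgttggatTATTTATtttagaaa
Zfp36l2: atttaactTATTTATtatcttgt
A match of letters is a description and does not show that the site is bound.

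Zfp36l1 (Entrez gene 12192) had signals of 250.2, 144.7 and 141.2 in the 3 aged samples, replicates 1 to 3 in order, and of 123.2, 129.4 and 124.0 in the 3 young ones. All 3 aged samples lay above all 3 young ones, with aged replicate 1 far above the other two. The aged mean was 179 ± 61.9 and the young mean 126 ± 3.37 (SD, n = 3 each), a ratio of 1.42. In ground tissue, a difference in the number of cells of a type and one in RNA per cell cannot be told apart. On the log2(signal + 1) scale the difference was 0.45, against a pooled SD within groups of 0.33. Without aged replicate 1 it was 0.19, with 2 of 2 aged samples still above the young ones, at 1.15 and 1.13 times the young mean. Among the 66 genes whose mean signal reached 1, a filter that both members passed with means of 152 and 80.5, the difference of Zfp36l1 ranked number 10 from the top with all libraries and number 35 without aged replicate 1. All aged samples lay above all young samples in 4 of the 66 genes (6.06%), and aged replicates 2 and 3 did so in 29 (43.9%).

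Zfp36l2 (Entrez gene 12193) was listed at 109 in aged replicate 1, above the 3 young values of 73.66, 80.99 and 77.34. Aged replicates 2 and 3, at 69.8 and 72.5, lay below all 3 young samples. The aged mean of 83.7 ± 21.9 was thus above the young mean of 77.3 ± 3.67 (SD, n = 3 each) through aged replicate 1. The log2 difference was 0.085 with all libraries and −0.12 without that one. It was also −0.12 when the library medians were set equal. The order of samples in Zfp36l2 was shared by Il1a, Myc, Tgfbr1, Gadd45b and Pik3r1, which made 6 of 66 genes (9.09%) with aged replicate 1 above and aged replicates 2 and 3 below all young samples. In the authors' deposited table the log2 ratio of aged to young was 0.50 for Zfp36l1 and 0.11 for Zfp36l2, ranks 28 and 68 from the top of 85 genes with a value.

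**Figure D1:**
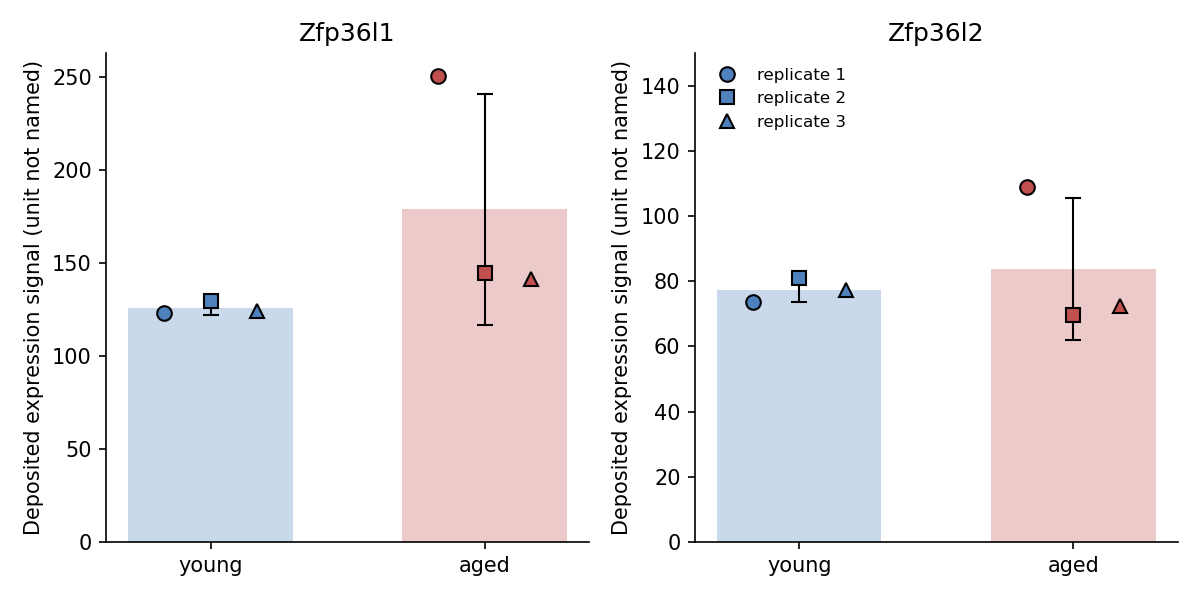
Deposited expression signal (unit not named) of Zfp36l1 (left) and Zfp36l2 (right) in young and aged samples; bars are group means, whiskers the SD of 3 samples and symbols the replicates. Aged replicate 1 is the highest sample in both panels, at 250.2 and 109, while aged replicates 2 and 3 are above the young samples for Zfp36l1 and below them for Zfp36l2.

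The young samples were close together for both members. The coefficient of variation among young samples was 2.69% for Zfp36l1, the third lowest of the 66 genes, and 4.74% for Zfp36l2, the fifth lowest, with a median of 18.2% over the 66 genes. Among the aged samples it was 34.7% and 26.2%. The 66 genes differ widely in signal, and the ranks were not taken among genes of like signal.

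In the table as a whole, the first aged library differed from the rest. Its log2 values correlated with those of the other 5 libraries at r = 0.72 to 0.84 across the 66 genes, whereas the other 5 correlated with each other at 0.93 to 0.99 (genes of one library are not independent). It was the highest of the 6 samples in 28 of 66 genes (42.4%), both members among them. Zfp36l1 in aged replicate 1 was 0.99 log2 units above its young mean, a shift that 7 of the 66 genes exceeded. For Zfp36l2 the shift was 0.49, and 19 genes exceeded it. What sets this library apart was not tested.

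**Figure D2:**
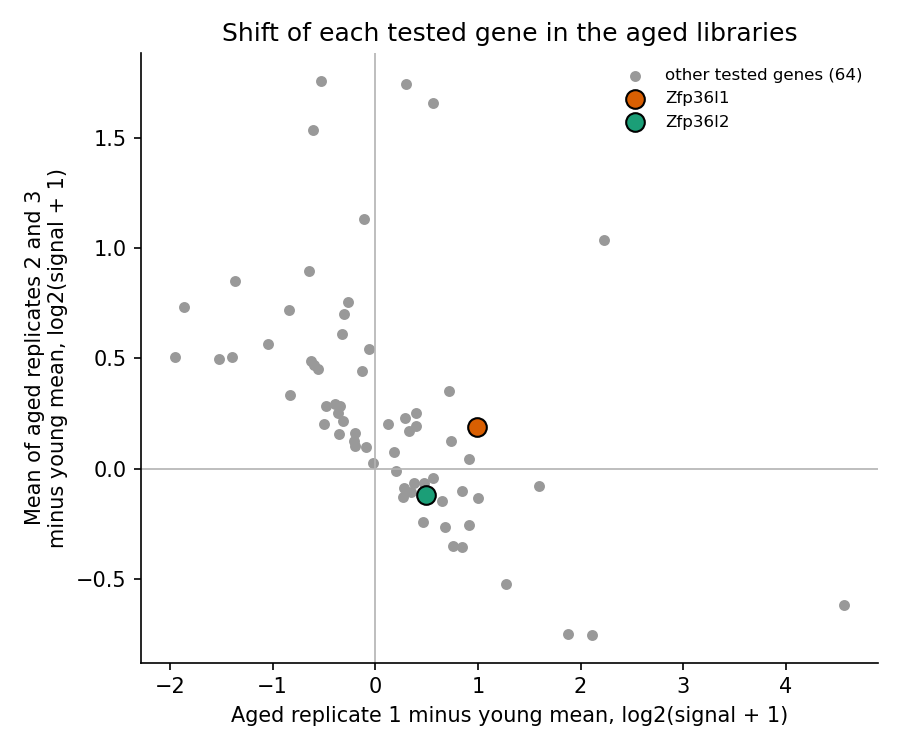
Each of the 66 tested genes by its shift from the young mean in aged replicate 1 (horizontal) and in the mean of aged replicates 2 and 3 (vertical), both in log2(signal + 1) units. Zfp36l1 lies right of and above the zero lines, Zfp36l2 right of and below them; the table was picked for a higher aged mean, which leaves the lower left empty.

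Measured against its own library, Zfp36l1 was higher in the first aged sample but not in the other two. Its log2 signal lay 4.40 above the median of the 66 genes in aged replicate 1, 3.46 and 3.54 above it in aged replicates 2 and 3, and 3.53 to 3.58 above it in the young samples. On this scale aged replicate 2 was below the young range and aged replicate 3 within it. The difference between the groups became 0.25 with equal library medians, and the groups overlapped. Zfp36l2 lay 2.42 and 2.59 above the median in aged replicates 2 and 3, against 2.79 to 2.90 in the young samples. In aged replicate 1 it lay 3.21 above. The medians of aged replicates 1 to 3 were 0.15, 0.29 and 0.18 log2 units above the mean of the young medians. These medians rest on a table selected for higher aged means, and how far they reflect the libraries as a whole was not tested.

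The ratio of the signals of the relatives within a library does not depend on how the libraries are scaled. It was 2.30, 2.07 and 1.95 in aged replicates 1 to 3 and 1.67, 1.60 and 1.60 in young replicates 1 to 3. The 3 aged ratios lay above the 3 young ratios, with means of 2.11 ± 0.175 and 1.62 ± 0.0415 (SD, n = 3 each). The aged mean was 1.30 times the young mean, and 1.24 times without aged replicate 1. This ratio was chosen after the values were seen and uses the same samples that chose Zfp36l1, so no test is given. Over all 2145 pairs of the 66 genes, 145 pairs (6.76%) had ratios without overlap of the groups. Zfp36l1 formed such a ratio with 6 of its 65 possible partners and Zfp36l2 with 2. The ratio compares samples and not the abundance of the genes, since it is not known whether the signal is per transcript length.

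**Figure D3:**
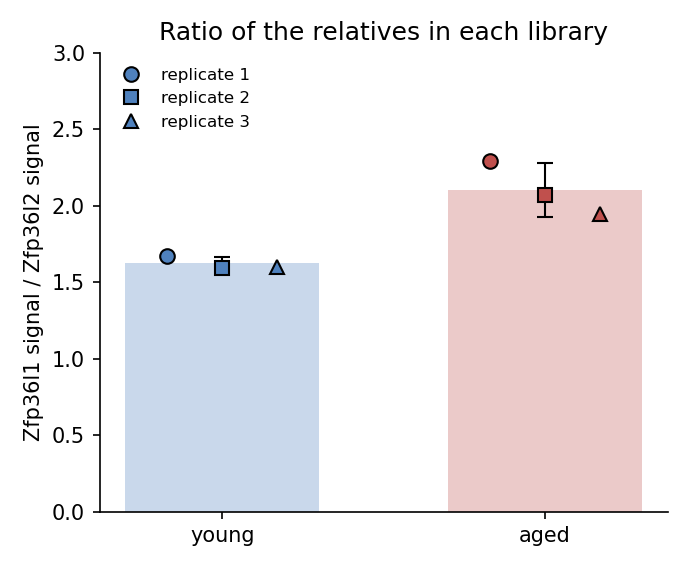
Zfp36l1 signal divided by Zfp36l2 signal in each library; bars are group means, whiskers the SD of 3 samples and symbols the replicates. The aged libraries lie between 1.95 and 2.30 and the young ones between 1.60 and 1.67.

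The members differ in composition, with 49.0% GC over 2990 bases for Zfp36l1 and 54.8% over 3530 bases for Zfp36l2. When a linear dependence on GC content and log2 length was removed from each library over 62 genes, the aged minus young difference in log2 ratio was 0.32, against 0.37 before. The corrected log2 ratios were 1.10, 1.44 and 1.53 in aged replicates 1 to 3 and 0.89, 1.07 and 1.17 in young replicates 1 to 3. Aged replicate 1 then lay inside the young range, while aged replicates 2 and 3 remained above it.

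The list of p38, MK2, mTOR and PI3K genes was drawn up as the arm upstream of ZFP36L1. It had 7 of its 21 genes in the table, all with a mean signal of at least 1. Whether each of the 7 acts on ZFP36L1 was not tested. With limma on log2(signal + 1), 0 of 66 genes passed a 5% false discovery rate (0%), so 0 of these 7 did. The count at an unadjusted limma p under 0.05 was 3 of 66, and the lowest adjusted p was 0.444. The median log2 difference of the 7 was 0.046, beside 0.12 over all 66. Mapk12, a p38 kinase, had aged signals of 2.60, 19.7 and 17.9 and young signals of 10.5, 13.0 and 15.8 (replicates 1 to 3). Mapk11, another p38 kinase, had aged signals of 1.41, 3.91 and 3.79 against young signals of 2.65, 3.11 and 1.97. In both, aged replicate 1 was the lowest sample and aged replicates 2 and 3 were above all young ones, an order that 21 of the 66 genes (31.8%) had. Rheb, the small GTPase that activates mTOR, was also lowest in aged replicate 1, at 29.2 against 33.8 to 43.8 in the young samples. Pik3r1, a regulatory subunit of PI3K, had aged signals of 27.14, 11.96 and 10.54 and young signals of 16.85, 14.25 and 13.14, in the same order as Zfp36l2. Mapk13, a further p38 kinase, had means of 1.37 ± 0.563 and 1.29 ± 0.544, and the mTOR inhibitor gene Tsc1 had 5.88 ± 0.788 and 5.85 ± 0.854 (aged and young, SD, n = 3 each). The groups overlapped in both. Mapkapk2, which encodes MK2, and Mtor are not among the 88 genes and were not analysed here.

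Among the genes downstream, the list of secreted factors had 4 of 17 genes in the table, and 3 had a mean of at least 1. The list of messengers described as ZFP36 family targets had 5 of 25, with 3 tested. None of them passed limma with all libraries. Il1a, a pro-inflammatory cytokine on both lists, had aged signals of 142, 3.03 and 2.83 and young signals of 7.50, 5.23 and 3.13. The transcription factor gene Myc, which promotes growth, had 22.4, 2.83 and 1.67 against 4.73, 4.51 and 3.97. In both, aged replicate 1 was highest, as it was for Zfp36l1 and Zfp36l2, and aged replicates 2 and 3 were below all young samples, as for Zfp36l2. The cytokine gene Il6 also stood highest in aged replicate 1, at 1.63 against 0.06 and 0.21 in aged replicates 2 and 3 and 0.22 to 0.34 in the young samples. It missed the filter with a mean of 0.455, as did the cyclin gene Ccne2 with 0.518.

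Cdkn1a, the cyclin-dependent kinase inhibitor p21, was below all young samples in aged replicate 1 and above them in the other two, the order of 31.8% of the 66 genes, with aged signals of 17.96, 94.6 and 88.0 against young signals of 30.8, 27.0 and 21.9. Igfbp2, a carrier of insulin-like growth factors, had the same order, with aged signals of 170, 776 and 814, while its young signals were 733, 329 and 353. In a fit without the first aged library, limma called 15 of the 66 genes (22.7%), with 14 higher in the aged samples (21.2%) and 1 lower (1.52%). Of the 3 tested targets, Cdkn1a was among those higher (log2 difference 1.76, SE 0.158, limma adjusted p = 0.000511) and Myc was the one lower (log2 difference −0.75, SE 0.224, limma adjusted p = 0.0495). These adjusted p, from the fit without aged replicate 1, were the lowest of 13 limma fits for each gene, and the highest was 0.999 for both. None of the 7 upstream genes was called. Since the table was selected on the mean over all 3 aged samples, leaving one out gives no independent evidence of direction.

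**Figure D4:**
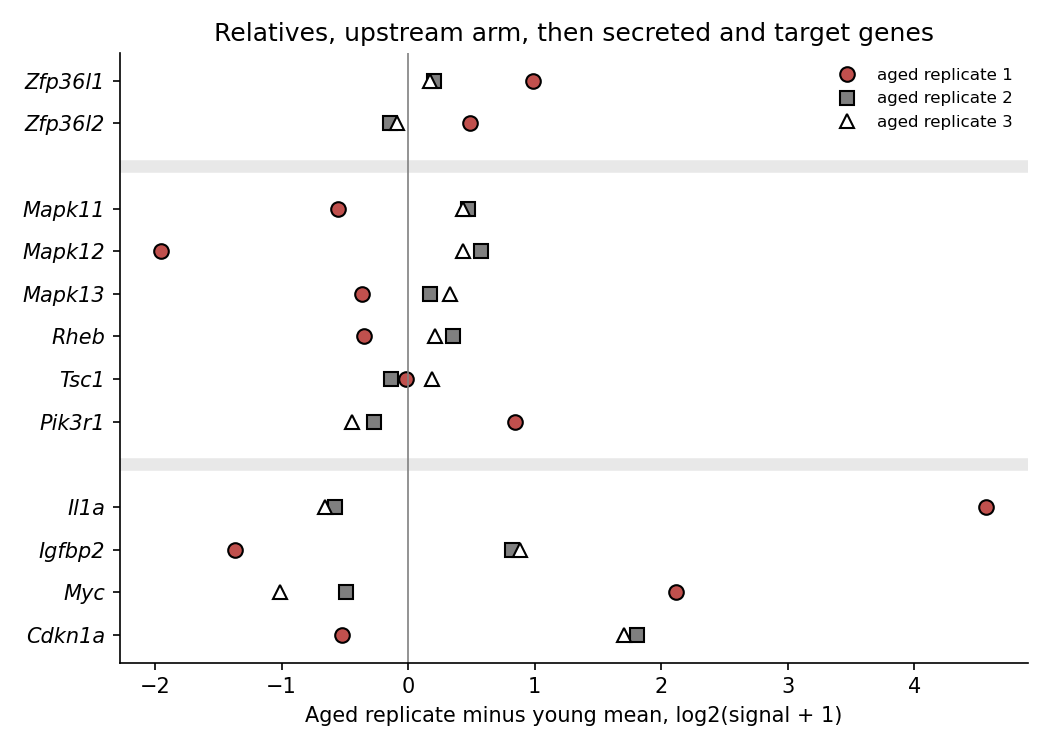
Shift of each aged replicate from the young mean, in log2(signal + 1) units, for the Zfp36l genes (top), 6 of the upstream genes (middle) and 4 of the secreted factors and described targets (bottom). Zfp36l1 has all symbols right of zero, whereas the replicates of the other genes shown lie on both sides of it.

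The genes whose profile over the 6 samples was nearest to that of Zfp36l1 were Sirt1, Atm, Zfp36l2, Cacna1d and Ccna2. Likeness was the root mean square difference between log2(signal + 1) profiles, each centred on its own mean. It was 0.16 for Sirt1, a deacetylase, 0.18 for Atm, a DNA damage kinase, and 0.20 each for Zfp36l2, for the calcium channel gene Cacna1d and for the cyclin gene Ccna2, against a median of 0.50 over the 65 other tested genes. Aged replicate 1 was the highest sample in each of the 5. Without it, 0 of the 5 remained among the nearest, so the likeness rests on that library. Zfp36l2 was at rank 3 of 65 with all libraries. Sirt1, Atm, Cacna1d and Ccna2 had mean signals of 4.15, 1.85, 4.84 and 1.40 over the 6 samples, against 152 for Zfp36l1. At such low signals the log2(signal + 1) scale understates a fold change.

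The lists of mRNA decay enzymes and AU-rich element binding proteins (29 genes) and of markers of astrocytes, microglia, endothelial cells, NK and T cells, oligodendrocytes, mature neurons and choroid plexus had 0 genes in the table. Whether the cell makeup of the samples moved with Zfp36l1 was not tested.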

How the data were processed

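Per the labels' protocols, RNA was extracted with Trizol from ground tissue, mRNA was selected on oligo(dT) beads, and the cDNA was amplified and circularised. The values deposited by the authors are an expression signal, never negative. For it, no unit, normalization, aligner, counter or build is given in the sources used here. A log2 ratio of aged to young, a p-value and a q-value by the authors stand beside it, per the file headers. The p-values and q-values were not used. The cell cycle table (21 genes) holds neither Zfp36l gene. Groups and replicate numbers came from the sample titles, and no 2 sample columns were identical.

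The 66 of 88 genes whose signal averaged 1 or more in the 6 samples were kept. The fit on log2(signal + 1) used limma 3.58.1 (R 4.3.3, eBayes with trend, no covariate), with Benjamini-Hochberg adjustment over the 66 genes. It was tested on simulated data whose spread was taken without aged replicate 1. That test therefore does not cover the spread of the fit with all libraries. A fold change on the log2(signal + 1) scale understates that of low genes. Named were the Zfp36l rows, the 5 genes nearest in profile to Zfp36l1, and tested members of the family, upstream, secreted factor and target lists, except some list members that are not reported here. Il6, Ccne2, Tgfbr1, Gadd45b and the ratio of the relatives were added after their values were seen. The members and the 13 gene lists were chosen with earlier results of these data known. Through their Entrez ID, 80 of 88 genes were matched to GENCODE M21 transcripts. Python 3.11.15, numpy 2.4.6, pandas 2.3.3 and matplotlib 3.10.9 were used. Alternatives were equal library medians, a pseudocount of 0.1, eBayes without trend, no filter or a minimum mean of 5, a replicate block, a 10% false discovery rate, each library left out, and, added after seeing the data, removal of GC and length trends.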

Additional observations from a re-analysis of the deposited data

How the results depend on the processing

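The aged minus young log2 difference of Zfp36l1, 0.45 with all libraries, kept its sign under 11 of 11 alternatives. The lowest value was 0.19 (without aged replicate 1) and the highest 0.60 (without aged replicate 3). Each move was less than the pooled SD, but leaving out 1 library could not have moved it further. Nor could it have turned the sign, since all aged samples lay above all young ones. The difference within same-numbered pairs, counted among the 11, equals the main value by construction, as it does for Zfp36l2 and the log2 ratio. The difference in log2 ratio of Zfp36l1 to Zfp36l2 kept its sign under 11 of 11, with a lowest value of 0.31 (without aged replicate 1) and a highest of 0.42 (without aged replicate 3). For Zfp36l2 the sign turned under 2 of 11, to −0.12 with equal library medians and to −0.12 without aged replicate 1. With 1 library left out it ran from −0.12 to 0.20. The cause was not tested. The count of genes passing limma was 0 under 12 of 13 alternatives and 15 without aged replicate 1, so with 1 library left out it ran from 0 to 15.

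The count of genes with all aged above all young samples went from 4 to 2 with equal library medians, which left Zfp36l1 out, and to 9 of 62 genes with GC and length trends removed. Leaving out 1 library gave 4 (aged replicate 2) to 29 (aged replicate 1), with 7 without aged replicate 3 and 8 without young replicate 1. Zfp36l1 was among them each time. Fewer samples make such an order easier to meet. Of the 5 genes nearest to Zfp36l1, 3 were shared with no filter, 1 with a mean of at least 5 (some of the 5 are then not tested) and 2 with profiles scaled to unit SD. With 1 library left out, 0 to 5 were shared, with 3 without young replicate 1.

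Same-numbered samples deviated from their group means with r = 0.27, 0.091 and 0.41 for numbers 1 to 3 across genes. For samples of different number r ran from −0.35 to 0.25, the highest being aged replicate 2 with young replicate 3. These values do not decide whether the samples are paired. The numbers were not taken as pairs, since the sample titles name none. With the replicate block, 0 genes passed limma. Within-pair differences equal the main ones by construction: 0.45 for Zfp36l1, 0.085 for Zfp36l2 and 0.37 for their log2 ratio. The depth is unknown, so counting error could not be given.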
